A study of Danio rerio with 15 samples.

Results

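The genes described here encode parts of the cell's protein folding and protein disposal machinery. They are heat shock proteins and J proteins, endoplasmic reticulum (ER) chaperones, factors of the unfolded protein response, and proteasome subunits and regulators. They were chosen by gene symbol alone, with 17 prefixes such as hsp, dnaj, psm followed by a subunit letter and number, pdia, calr, edem, bag, atf4 or atf6 and ddit3, a rule that uses no expression value, although the gene families were picked with earlier results of these data known. Of the 5686 genes that the table lists, 31 were members: 17 cytosolic, 6 of the ER, 4 of the proteasome, 1 mitochondrial and 3 J proteins with other roles. The ER class counts the unfolded protein response transcription factors atf4b and ddit3 together with genes of ER proteins. It lacks hspa5 and hsp90b1, which the table does not list. The proteasome class is psmb8a, psmb12, psmd10 and psmf1, without any psma or psmc gene. Class medians thus describe these listed genes alone. No listed gene carried 8 of the prefixes, among them those of the cytosolic chaperonin, calnexin, Xbp1 and the Sec61 channel, and genes outside the table were not analysed here.

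RNA was sequenced from kidneys of AB zebrafish aged 6 months, in 5 groups of 3 libraries: uninjured kidneys (control) and kidneys at 1, 3, 5 and 7 days post injury (dpi). Acute kidney injury was induced with an intraperitoneal injection of gentamicin, an aminoglycoside antibiotic that damages the renal tubule, and the study kept for its experiments the fish that passed protein in the urine at 1 dpi. The study calls the 3 samples of a condition biological replicates. The labels only number them and do not say whether a library held 1 kidney or a pool, so p-values measure the spread between these libraries.

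Cells hold newly made and damaged proteins in check with chaperones. Hsp70 proteins grip exposed hydrophobic stretches in cycles of ATP binding and hydrolysis that J proteins start and nucleotide exchange factors reset, and Hsp90 finishes the folding of many signalling proteins. In the ER, lectin chaperones and disulfide isomerases fold secreted and membrane proteins, and an overload of unfolded protein raises the transcription factors Atf4 and Ddit3 (also called Chop). Proteins that cannot be folded are tagged with ubiquitin and degraded by the proteasome. In the kidney, tubule cells under toxic or ischaemic stress are known for strong induction of Hsp70.

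Values are FPKM, fragments scaled to the length of the gene and to the size of the library, with 13876000 to 16368000 reads behind each library. The libraries differed in their share of other tissue. Summed over the 28 listed genes of a list of 51 ovary genes, the level reached 1859, 46.8 and 2726 FPKM in control replicates 1, 2 and 3, 949 FPKM in 1 dpi replicate 2, 1381 FPKM in 5 dpi replicate 1 and at most 439.8 FPKM in the other 10 libraries. No ovary gene was at 0 in all samples and 13 were at 0 in some, and the most abundant were the egg coat genes zp3a.2 and zp3b and the oocyte gene zar1. Proximal tubule genes, 28 of 32 listed, summed to 2678 to 3846 FPKM in control kidneys and 862 to 886 FPKM at 7 dpi. In whole kidney RNA, fewer cells of a type and less RNA per cell cannot be told apart. The clock gene nr1d1 stood at 0.394 to 2.57 FPKM in control, 663 to 1435 at 1 dpi and 11.2 to 21.2 at 3 dpi, and the hour at which kidneys were taken is not given in the sources used here. The part of ovary tissue, of tubule loss and of the hour of collection in the results that follow was not tested. The exceptions are the fits given with ovary genes as a covariate or without the ovary-rich libraries.

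Over the 5 groups, 25 of the 31 members differed (limma F-test on log2(FPKM + 1), adjusted p below 0.05). The table is rich in genes that differ, since 64.5% of all 5685 genes tested did so in the same test. By class, 15 of 17 cytosolic, 6 of 6 ER, 2 of 4 proteasome and 1 of 3 other members were called, together with the mitochondrial hspe1. The members that were not called were hsp90aa1.1, hspb1, psmb8a, psmb12, dnajc21 and dnajc22. The call of dnajc6 held in 7 of 24 other settings. The highest group mean fell at 1 dpi for 16 members, at 3 dpi for 8, at 5 dpi for 3, at 7 dpi for 1 and in control kidneys for 3. The lowest group mean fell at 7 dpi for 12 members.

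**Figure D1:**
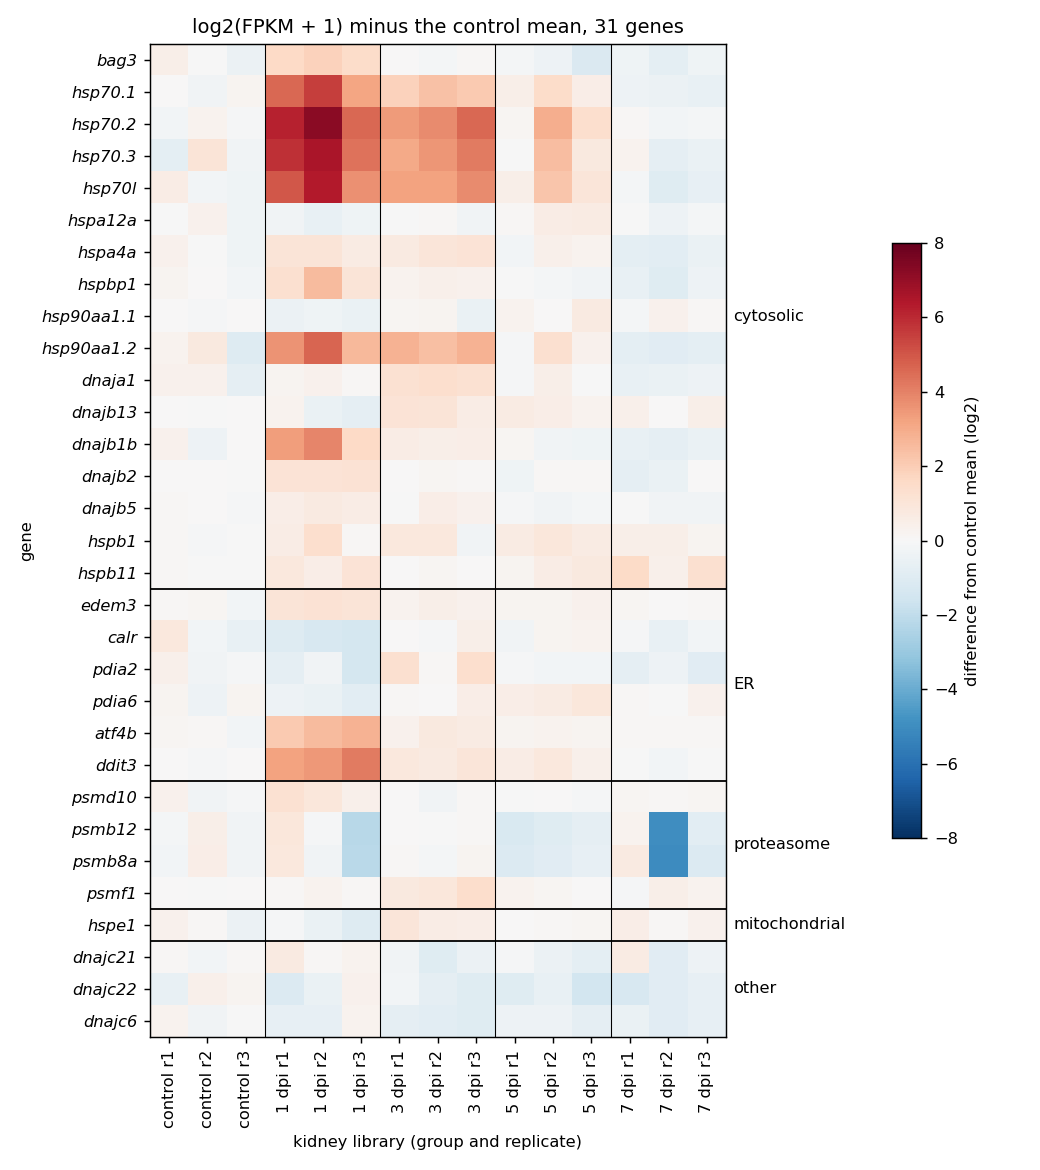
Each row is a member gene, ordered by class, and each column a kidney library; colour shows log2(FPKM + 1) minus the mean of the 3 control libraries. The 4 hsp70 genes are on average the deepest red at 1 dpi (mean differences 4.43 to 5.97), and hsp90aa1.2, dnajb1b, atf4b and ddit3 are paler (2.46 to 3.63). The genes psmb8a and psmb12 stand out in blue in 7 dpi replicate 2, where they had 1 and 0 reads.

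The comparison of each time point with control asks when after injury these genes depart from the uninjured kidney. At 1 dpi, 16 members were called, 15 higher and 1 lower, against 19.8% of all genes tested (12.9% higher, 6.9% lower). The median log2 change of the 31 members, all of which passed the filter on low values, was 0.68 beside -0.09 over all genes tested. Among the cytosolic members 12 rose and 1 fell, among the ER members 3 rose, and of the proteasome members 0 of 4 were called (1 had an unadjusted p below 0.05). The medians were 1.12 for the cytosolic, 0.24 for the ER and -0.15 for the proteasome class. The ER class joined edem3, atf4b and ddit3 (1.08 to 3.63) with calr, pdia2 and pdia6 (-1.26 to -0.61, none called). In the proteasome class psmd10 (0.86) and psmf1 (0.17) lay above all control libraries and were not called. Over all classes 18 members lay above all control libraries at 1 dpi and 3 below, beside 24.6% and 20.1% of all genes tested. The overlapping genes psmb8a (-0.54, SE 0.74) and psmb12 (-0.46, SE 0.76) were spread widely.

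The largest rises at 1 dpi were those of the 4 inducible Hsp70 genes. Of these, hsp70.1 (chr3:25981914-25984688), hsp70.2 (chr3:25988732-25991482) and hsp70.3 (chr3:25992865-25996220), are neighbours on chromosome 3 of the GRCz11 assembly, and hsp70l lies on chromosome 8 (chr8:4741891-4744644). They are close copies of 1 family, and how the count treated reads that match several genes is not given in the sources used here, so their single values are less certain than their sum. The sum of hsp70.1, hsp70.2 and hsp70.3 was 2.74, 7.14 and 3.77 FPKM in the control libraries and 356, 659 and 123 FPKM at 1 dpi. It was 50.01, 68.9 and 107 FPKM at 3 dpi, 5.19, 34.3 and 10.4 FPKM at 5 dpi, and 4.26, 2.07 and 2.17 FPKM at 7 dpi. Every library at 1 and 3 dpi lay above every control library, while 5 and 7 dpi overlapped control.

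Singly, hsp70.2 was at 0.783, 1.55 and 0.917 FPKM in control and 143, 299.7 and 48.4 FPKM at 1 dpi, a log2 change of 5.97 (SE 0.63, limma adjusted p = 0.0020). It then stood at 20.9, 27.5 and 49.7 FPKM at 3 dpi, 1.34, 14.7 and 4.27 FPKM at 5 dpi and 1.16, 0.742 and 0.810 FPKM at 7 dpi. The 1 and 3 dpi libraries were apart from control, and at 5 dpi replicates 2 and 3 lay above it and replicate 1 within it. The mean at 1 dpi was 151 times that of control. The neighbour hsp70.3 was at 0.672, 4.75 and 1.34 FPKM in control and 160.0, 258 and 56.0 FPKM at 1 dpi (log2 change 5.56, SE 0.68, limma adjusted p = 0.00336). Control replicate 2 was the highest of its control libraries and still below all of 1 and 3 dpi. The ratio of hsp70.2 to hsp70.3 stayed between 0.327 and 1.16 over the 15 libraries, with a median of 0.895.

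The other neighbour, hsp70.1, was at 1.29, 0.838 and 1.5 FPKM in control and 52.3, 102 and 18.3 FPKM at 1 dpi (log2 change 4.43, SE 0.59, limma adjusted p = 0.00473). At 7 dpi its 3 libraries, at 0.651, 0.602 and 0.434 FPKM, all lay below control, with an adjusted p of 0.0796. The chromosome 8 gene hsp70l was at 4.01, 1.81 and 1.56 FPKM in control and 104, 262 and 40.1 FPKM at 1 dpi (log2 change 4.98, SE 0.67, limma adjusted p = 0.00495). At 3 dpi it stood at 29.9, 29.5 and 44.9 FPKM, and at 7 dpi at 1.97, 0.685 and 1.13 FPKM. In all 4 genes, replicate 2 was the highest and replicate 3 the lowest library of 1 dpi, and the lowest 1 dpi library was above the highest control library.

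**Figure D2:**
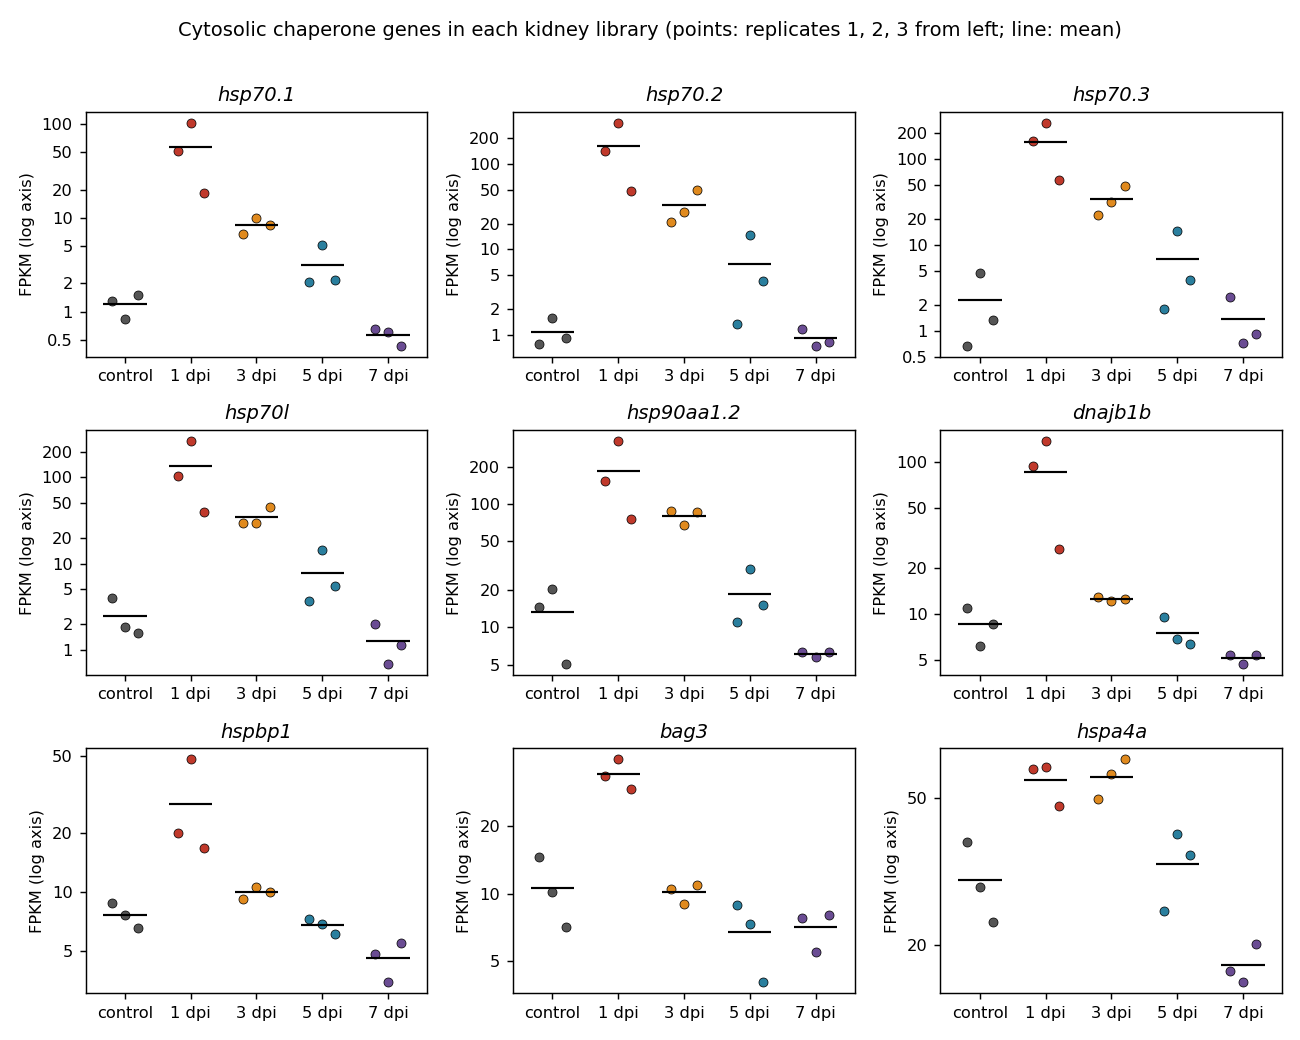
FPKM of 9 cytosolic members in each library, on log axes, with the group mean as a line. At 1 dpi the hsp70 genes, hsp90aa1.2, dnajb1b, hspbp1, bag3 and hspa4a have replicate 2 at the top and replicate 3 at the bottom, and levels at 7 dpi overlap those of control or lie below them.

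The Hsp90 genes hsp90aa1.1 and hsp90aa1.2 went apart. The stress-inducible hsp90aa1.2 (chr20:54177901-54206778) was at 14.6, 20.5 and 5.09 FPKM in control, 153, 321 and 75.4 FPKM at 1 dpi and 88.0, 66.9 and 86.2 FPKM at 3 dpi. All 6 of these injured libraries were above control, and the log2 change at 1 dpi was 3.62 (SE 0.66, limma adjusted p = 0.0136). Its levels at 7 dpi, 6.32, 5.80 and 6.36 FPKM, lay within the control range. The annotated span of the muscle-enriched hsp90aa1.1 (chr20:54192871-54222597) overlaps that of hsp90aa1.2 by 13908 bases on the same strand. The counted lengths recovered from FPKM are 2802 bases for hsp90aa1.1 and 4383 for hsp90aa1.2. The gene hsp90aa1.1 had 0.797, 0.614 and 0.804 FPKM in control and 0.25, 0.357 and 0.212 FPKM at 1 dpi. It fell by 0.45 on the log2(FPKM + 1) scale (SE 0.12, limma adjusted p = 0.0395), on 26 to 32 reads in control and 9 to 16 at 1 dpi. That call was lost under 13 of 16 other settings, and reads in the shared stretch cannot be assigned with certainty. The sum of both genes, 15.4, 21.2 and 5.89 FPKM in control against 154, 321 and 75.6 FPKM at 1 dpi, followed hsp90aa1.2.

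Of the Hsp70 partners among the members, some rose at 1 dpi and others, such as dnaja1 and dnajb13, were not called. The J protein gene dnajb1b, whose product starts the Hsp70 cycle, was at 11, 6.16 and 8.57 FPKM in control and 94.2, 137 and 26.8 FPKM at 1 dpi, a log2 change of 2.93 (SE 0.60, limma adjusted p = 0.0194). By 3 dpi it was at 12.9, 12.2 and 12.6 FPKM, still above each control library but not called. Its annotated span overlaps that of adgre10 on the other strand by 1126 bases, and the strand setting of the count is not given in the sources used here. The call of dnajb1b was lost without control replicate 1 or 3 or 1 dpi replicate 1 or 2.

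The 3 exchange factors among the members that reset Hsp70 also rose. The BAG domain gene bag3 went from 14.6, 10.17 and 7.14 FPKM to 33.6, 39.8 and 29.6 FPKM (log2 change 1.64, SE 0.29, limma adjusted p = 0.0127). The Hsp70 binding protein gene hspbp1 went from 8.79, 7.62 and 6.52 FPKM to 20.2, 47.9 and 16.8 FPKM (log2 change 1.62, SE 0.41, adjusted p = 0.0366). The Hsp110 family gene hspa4a went from 37.8, 28.6 and 23 FPKM to 59.7, 60.5 and 47.5 FPKM (log2 change 0.90, SE 0.24, adjusted p = 0.0459). In each of the 3 genes the injured libraries were clear of control, with replicate 2 highest and replicate 3 lowest. The call of bag3 held without each library in turn, that of hspbp1 in 1 of the 6 such fits (without 1 dpi replicate 3) and that of hspa4a in 0 of the 6.

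Among the other J proteins, dnajb2, whose mammalian product hands clients to the proteasome through ubiquitin-binding motifs, rose with little spread. It was at 5.53, 5.56 and 5.16 FPKM in control and 12.9, 12.6 and 13.3 FPKM at 1 dpi, a mean ratio of 2.39 (log2 change 1.12, SE 0.20, limma adjusted p = 0.0127). The low gene dnajb5 had 3 to 6 reads in each control library and 16 to 21 at 1 dpi (log2 change 0.62 on the log2(FPKM + 1) scale, adjusted p = 0.0203). In contrast to these, dnaja1, a farnesylated J protein of the cytosol, was at 15.9, 16.3 and 7.10 FPKM in control and 14.3, 16.2 and 13.4 FPKM at 1 dpi, and the groups overlapped. The 2 small heat shock genes were hspb1 and hspb11. Reads of hspb11 were 1, 0 and 0 in control and 14, 8 and 19 at 1 dpi, which was called (log2 change 0.83, limma adjusted p = 0.0166). Its control level is below the floor of 3 reads and gives no fold. Levels of hspb1 were 7.19, 6.37 and 6.69 FPKM in control and 10.7, 18.7 and 7.21 FPKM at 1 dpi, all above control and not called.

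The 3 ER members that rose at 1 dpi were the unfolded protein response factors atf4b and ddit3 and the mannosidase gene edem3. Translation of Atf4 is favoured when stress kinases phosphorylate eIF2alpha, and Atf4 in turn activates ddit3. The atf4b gene (chr3:24067386-24070271) was at 118, 114 and 91.7 FPKM in control and 459, 625 and 733 FPKM at 1 dpi, a mean ratio of 5.61 (log2 change 2.46, SE 0.25, limma adjusted p = 0.00172). It was at 137, 183 and 171 FPKM at 3 dpi, at 127, 133 and 125 FPKM at 5 dpi and at 113, 112 and 114 FPKM at 7 dpi. Libraries of 1, 3 and 5 dpi lay above control, and those of 7 dpi overlapped it.

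The ddit3 gene (chr6:58921658-58924855) was at 15.9, 14.8 and 16.4 FPKM in control and 156, 186 and 297 FPKM at 1 dpi, with a mean ratio of 13.6 (log2 change 3.63, SE 0.27, limma adjusted p = 6.28e-04). This was the smallest adjusted p of any member at 1 dpi. At 3 dpi it was at 28.4, 26.5 and 31.1 FPKM, at 5 dpi at 23.9, 28.4 and 21 FPKM and at 7 dpi at 15, 13.5 and 15.3 FPKM. The 3 and 5 dpi libraries did not overlap control, and only the former were called. The span of ddit3 overlaps that of fam210b on the other strand by 2080 bases. The gene edem3, whose product trims mannose to mark misfolded glycoproteins for degradation, went from 12, 12.3 and 9.46 FPKM to 24, 26.4 and 24 FPKM (log2 change 1.08, SE 0.20, adjusted p = 0.0149), clear of control, though not called without 1 dpi replicate 2.

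The other 3 ER members, all folding factors, had lower means at 1 dpi. The calcium-binding lectin chaperone gene calr was at 49.3, 23 and 17.7 FPKM in control and 12.5, 10.5 and 9.60 FPKM at 1 dpi, below every control library (log2 change -1.26, SE 0.39, limma adjusted p = 0.0642, not called). The disulfide isomerase gene pdia6 was at 50.1, 32.4 and 50.3 FPKM in control and 32.2, 29.2 and 23.5 FPKM at 1 dpi, also below control and not called (adjusted p = 0.131). For pdia2, another disulfide isomerase, 7.10, 9.97 and 3.97 FPKM at 1 dpi overlapped 16.1, 9.83 and 11.3 FPKM in control. Of these 3 members none was called, and 2 lay below all control libraries, as did 20.1% of all genes tested.

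**Figure D3:**
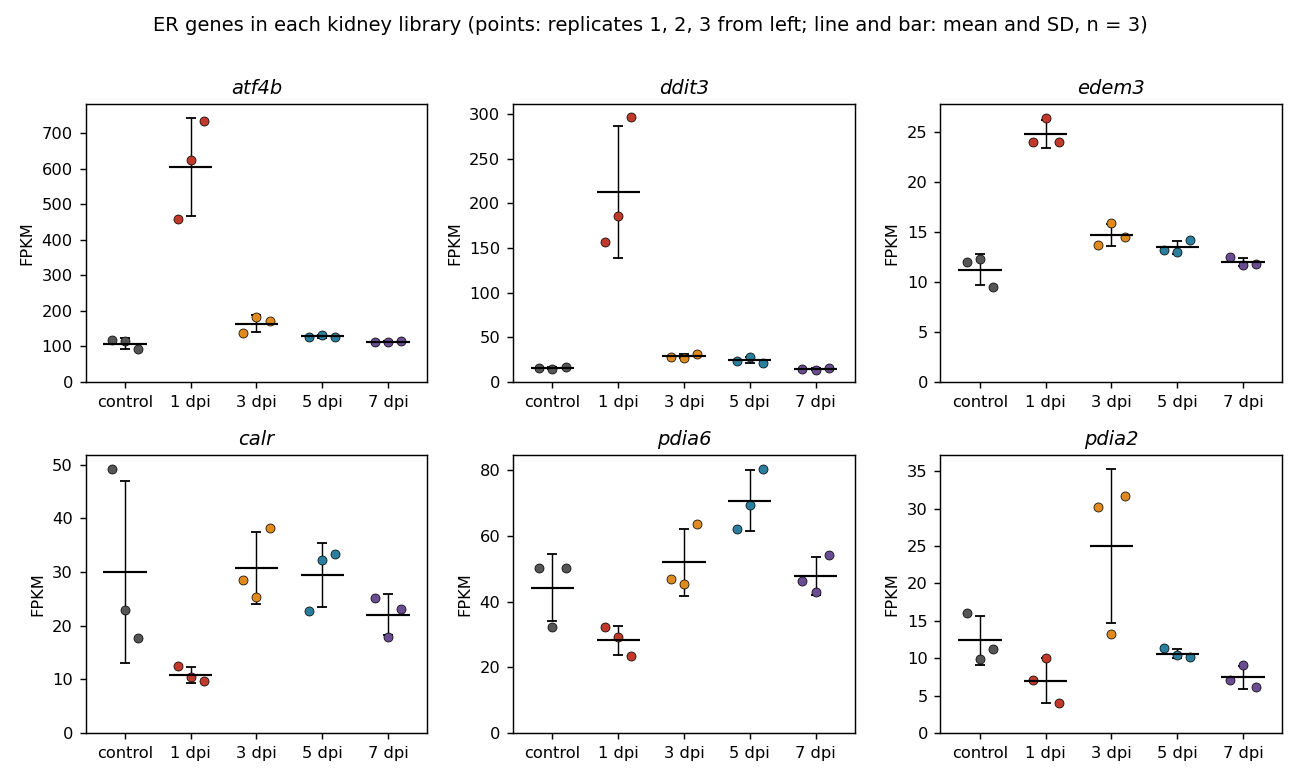
FPKM of the 6 ER members in each library, with group mean and SD (n = 3). The tall 1 dpi groups of atf4b, ddit3 and edem3 (459 to 733, 156 to 297 and 24 to 26.4 FPKM) stand beside the lower 1 dpi means of calr, pdia6 and pdia2, none of which was called.

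The 1 dpi libraries differed among themselves, and the heat shock genes ordered them differently from the transcription factor genes atf4b and ddit3. Of the 15 members that rose, 9 had the order replicate 2, then 1, then 3, and all 9 were cytosolic. Over all 31 members 14 (45.2%) had this order, beside 20.8% of all genes tested. The highest library was 5.58 times the lowest for hsp70.1, 6.20 for hsp70.2, 6.54 for hsp70l and 4.25 for hsp90aa1.2. In atf4b and ddit3, in contrast, replicate 3 was highest and replicate 1 lowest, with ratios of 1.6 and 1.90. How many of all genes tested had this second order was not counted. The listed genes together held 29.4, 31.4 and 34.2% of the reads in 1 dpi replicates 1, 2 and 3, which is the same order. Beside these, in replicates 1, 2 and 3, the summed level of 9 erythroid genes (of 16 on the list, none at 0 in any sample) was 7899, 11213 and 2615 FPKM, that of the ovary genes 82.7, 949 and 42.8 FPKM, and that of the proximal tubule genes 1866, 2198 and 3111 FPKM. The erythroid genes, led by hbaa1, and the ovary genes had the order of the heat shock genes, as did the summed cell cycle genes (12 of 27 listed). Replicate 2, the highest 1 dpi library for the heat shock genes, was thus also the ovary-rich one. The proximal tubule genes and nr1d1 had the order of atf4b and ddit3. Summed neutrophil and macrophage genes (7 of 22 listed) and summed plasma and B cell genes (4 of 18) had that order too. Exocrine pancreas (20 of 44) and distal tubule genes (4 of 23) had neither order. A sum over few genes can follow its most abundant gene and need not give the order of the cell type. The zebrafish kidney is also the adult blood-forming organ. The part of cell makeup in these orders was not tested.

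The counts at 1 dpi depended on single libraries. Without control replicate 1, control replicate 3 or 1 dpi replicate 2, 10 members were called in place of 16, and with any of the other libraries left out 11 to 14. Over all genes tested the count was 539, 740 and 572 in the first of these fits, in place of 1127, and 644 to 1284 in the others. The calls that held without each library in turn were those of the 4 hsp70 genes, hsp90aa1.2, atf4b, ddit3, dnajb2 and bag3. The fit on all 15 samples called 18 members and 1987 of all genes tested at 1 dpi. With the mean level of ovary genes as a covariate these counts were 18 and 2075. A further fit left out the 4 libraries richest in ovary genes (control replicates 1 and 3, 1 dpi replicate 2 and 5 dpi replicate 1). Both ovary fits were added once the data had been seen. Control replicate 2 is the only control library in the further fit, and its spread is assumed to be that of the other groups. Calls of that fit against control are therefore not given.

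At 3 dpi 10 members were called, 9 higher and 1 lower, against 13.3% of all genes tested (6.4% higher, 6.91% lower). Of those higher 7 were cytosolic: the 4 hsp70 genes, hsp90aa1.2, hspa4a and dnajb13. The class medians were 0.53 for cytosolic, 0.48 for ER and 0.04 for proteasome members, beside -0.13 over all genes tested. The log2 changes of hsp70.2, hsp70.3, hsp70l, hsp90aa1.2 and hsp70.1 were 3.94, 3.57, 3.41, 2.67 and 2.08, with limma adjusted p-values between 0.00840 and 0.0221. Each was smaller than at 1 dpi, a difference that was not tested for 1 against 3 dpi alone. In ddit3 the log2 change was 0.83 (SE 0.16, adjusted p = 0.0261), while atf4b was above every control library and not called (adjusted p = 0.0944).

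At 3 dpi 15 members lay above all control libraries and 2 below, beside 18.5% and 24.7% of all genes tested. Some members stood above control at 3 dpi that were not called higher at 1 dpi. The J protein gene dnaja1 was at 29.5, 33.2 and 30.2 FPKM, above all control libraries, with a mean ratio of 2.37 and an adjusted p of 0.0507 that just missed the threshold. The gene dnajb13, whose mammalian product belongs to the radial spokes of motile cilia, went from 1.67, 1.6 and 1.67 FPKM in control to 4.58, 4.46 and 3.05 FPKM (log2 change 0.91, adjusted p = 0.0468). Its span overlaps the ends of ucp2 and ucp3 on the other strand by 117 and 110 bases. The proteasome inhibitor gene psmf1 (PI31) went from 26.6, 25 and 26.3 FPKM to 45.7, 50.1 and 71.2 FPKM (log2 change 1.05, SE 0.21, adjusted p = 0.0283). The single mitochondrial member, hspe1, which encodes the Hsp10 lid of the mitochondrial chaperonin, was at 57.4, 48.4 and 31.3 FPKM in control and 89.4, 66.4 and 65.1 FPKM at 3 dpi, apart from control and not called (adjusted p = 0.121). The only member called lower was dnajc6, which encodes the clathrin-uncoating J protein auxilin, at 1.87, 0.912 and 1.3 FPKM in control and 0.420, 0.300 and 0.181 FPKM at 3 dpi (log2 change -0.84, adjusted p = 0.0384).

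The 3 dpi calls were sensitive to single libraries. Leaving out 3 dpi replicate 2 left 2 members called, control replicate 1 left 3, 3 dpi replicate 3 left 3, control replicate 3 left 4 and 3 dpi replicate 1 left 5. The count over all genes tested fell as well, from 757 to 50, 138, 159, 230 and 361 in the same order. Only hsp70.2 and hsp70l were called without each library in turn. In the fit on all 15 samples 12 members and 1493 of all genes tested were called. With the mean level of ovary genes as a covariate in the same fit these counts were 7 and 761. Without the 4 ovary-rich libraries control replicate 2 is the only control library, so calls of that fit against control are not given.

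At 5 dpi 0 of 31 members were called with limma, against 8.16% of all genes tested (6.7% higher, 1.46% lower), 10 members had an unadjusted p below 0.05, and limma voom on the recovered reads also called 0. All 3 libraries lay above control for 9 members, among them ddit3, atf4b, edem3, hsp70.1, hspb1 and pdia6. The nearest to the threshold was hspb1, at 11.3, 13.4 and 11 FPKM (adjusted p = 0.0526), which was called under 3 other settings. The disulfide isomerase gene pdia6 had its highest group here, at 62.0, 69.6 and 80.6 FPKM (adjusted p = 0.117), and was called in the fit on all 15 samples. All 3 libraries lay below control for 4 members, psmb8a, psmb12, dnajb5 and dnajc6. Over all genes tested these shares were 21.5% above and 16.3% below. Without 5 dpi replicate 1, hspb11 was called higher.

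At 7 dpi 1 member was called, against 17.2% of all genes tested (4.78% higher, 12.4% lower), and this was hspb11 with 32, 6 and 25 reads beside 1, 0 and 0 in control (log2 change 1.07, adjusted p = 0.0491). The call rests on a gene below the floor in control and was lost when any 1 of the 6 libraries was left out. Without control replicate 2, 3 members were called lower (dnajb1b, hsp70.1 and dnajc6), beside 1916 of all genes tested called in either direction. Without control replicate 3, 2 members were called lower, beside 456 of all genes tested in either direction. In all, 7 members lay below all control libraries and 3 above, beside 27.4% and 15.1% of all genes tested, and of the 7 none was called. Those below were hsp70.1, hspa4a, hspbp1, dnajb1b, pdia2, dnajc22 and dnajc6. For hspa4a the 7 dpi libraries were at 17, 15.9 and 20.1 FPKM (adjusted p = 0.0781), and for hspbp1 at 4.80, 3.46 and 5.47 FPKM (adjusted p = 0.0925). Of those 7, hsp70.1, hspa4a, hspbp1 and dnajb1b had been above all control libraries at 1 and 3 dpi. None of them was called at 7 dpi, where the share below control was larger over all genes tested than over the members.

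Of the 4 proteasome members, psmf1 is given above. The gene psmd10, which encodes gankyrin, an assembly chaperone of the proteasome cap, was at 14.9, 9.0 and 10.6 FPKM in control and 27.9, 22.2 and 15.6 FPKM at 1 dpi, above control and not called (adjusted p = 0.0851). From 3 dpi on it was at 8.89 to 12.8 FPKM. The genes psmb8a (chr19:7186913-7225623), a catalytic subunit of the immunoproteasome, and psmb12 (chr19:7196298-7200531), another beta subunit, lie in the same stretch of chromosome 19, psmb12 inside the span of psmb8a on the other strand. Their levels moved together over the libraries, with psmb8a between 0.938 and 1.47 times psmb12 in the 14 libraries where both were above 0. The spans share 4234 bases, but the counted lengths recovered from FPKM are only 873 bases for psmb12 and 1620 for psmb8a. Reads from any counted bases that both share cannot be told apart without strand.

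The 1 and 7 dpi libraries of both genes were spread widely. Levels of psmb8a were 28.4, 48.4 and 26.9 FPKM in control, 60.1, 27.6 and 6.55 FPKM at 1 dpi and 35.6, 30.4 and 38.4 FPKM at 3 dpi. At 5 dpi they were 14.9, 17.7 and 21.1 FPKM, and at 7 dpi 54.5, 0.0405 and 15.2 FPKM. The 5 dpi libraries were below control, while 1 and 7 dpi spanned it. In 7 dpi replicate 2 psmb8a had 1 read and psmb12 none, beside 397 to 1421 reads of psmb8a in the other 7 dpi libraries. The gene abcb3l1, whose span overlaps psmb8a by 7979 bases on the other strand, was also at 0 in that library, at 5.73 FPKM in 7 dpi replicate 1 and at 1.64 FPKM in replicate 3. The other listed genes within 500000 bases (tcf19l, brd2a, flot1a, zbtb22b, pvrl2l and tapbp.1) were at 0.788 to 12.5 FPKM in 7 dpi replicate 2. Replicate 3 of 1 dpi was low for psmb8a, psmb12 and abcb3l1 as well, at 6.55, 5.74 and 1.01 FPKM.

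**Figure D4:**
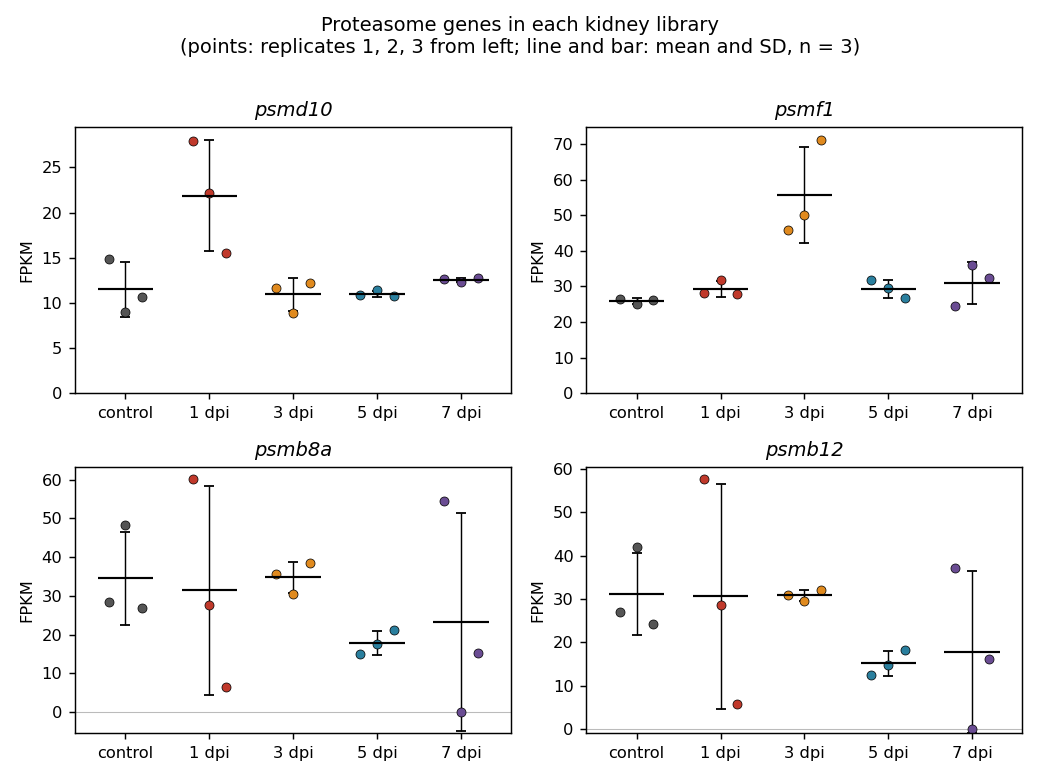
FPKM of the 4 proteasome members in each library, with group mean and SD (n = 3). The SD bars of psmb8a and psmb12 reach from near 0 to above 50 FPKM at 1 dpi, with libraries at 6.55 and 60.1 FPKM for psmb8a, while psmf1 peaks at 3 dpi (45.7 to 71.2 FPKM).

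The members not yet described were not called at any single time point. The atypical Hsp70 gene hspa12a, at 0.725 to 1.69 FPKM in control, was at 0.395 to 0.740 FPKM at 1 dpi and 1.31 to 2.37 FPKM at 5 dpi, overlapping control at each time point. The J protein gene dnajc21, linked to ribosome assembly, ranged from 8.79 to 30.4 FPKM and dnajc22 from 3.59 to 15.7 FPKM over the 15 libraries, and neither was called in any comparison. At 3 dpi the dnajc21 libraries, at 14.4, 8.79 and 12.8 FPKM, lay below control, and at 7 dpi those of dnajc22, at 4.16, 5.86 and 7.06 FPKM, did so.

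The contrast of 5 and 7 dpi with 1 and 3 dpi, fitted on all 15 samples, tests whether the mean of the late groups differed from that of the early groups. It called 18 members, 16 lower later and 2 higher, against 35.6% of all genes tested (20.5% lower, 15% higher). A fall in it can rest on 1 dpi alone. Against control 7 members were called higher at 1 and 3 dpi, and 7 at 1 dpi alone. Of the latter, bag3, dnajb2 and dnajb5 overlapped control at 3 dpi, while hspbp1, dnajb1b, edem3 and atf4b lay above it. The median difference was -0.63 over the members and 0.01 over all genes tested, with -1.20 for the cytosolic, -0.51 for the ER and -0.75 for the proteasome class. The proteasome value rests on 4 genes. Among them are the overlapping psmb12 (-1.19, SE 0.75) and psmb8a (-1.10, SE 0.78), neither called, which had 0 and 1 reads in 7 dpi replicate 2. In the cytosolic class 12 members fell and 1 rose, in the ER class 3 fell and 1 rose, and in the proteasome class psmf1 fell by 0.41 (adjusted p = 0.0298), a call lost without 1 dpi replicate 2, 3 dpi replicate 3, 5 dpi replicate 2 or 3, or 7 dpi replicate 1, without the 4 ovary-rich libraries and with quantile normalization (log2 difference -0.097, adjusted p = 0.560). The count was 16 to 19 when single libraries were left out, and 18 without the 4 ovary-rich libraries.

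The hsp70 genes, hsp90aa1.2 and dnajb1b fell most, with log2 differences of -4.27 (hsp70.2, SE 0.47, adjusted p = 3.17e-05), -4.19 (hsp70.3), -3.88 (hsp70l), -3.30 (hsp90aa1.2), -3.09 (hsp70.1) and -2.11 (dnajb1b). Of the ER members ddit3 fell by 1.98 (SE 0.15, limma adjusted p = 1.43e-06) and atf4b by 1.36 (SE 0.13, adjusted p = 1.04e-05), and edem3 fell by 0.55. These are the transcription factors and the degradation factor that had risen at 1 dpi. The ER folding enzyme pdia6 went the other way, with a log2 difference of 0.59 (SE 0.15, adjusted p = 0.00967), as did hsp90aa1.1 with 0.47 (SE 0.15, adjusted p = 0.0313), whose call was lost in 6 of the 12 fits without a library. The lectin chaperone calr was not called (adjusted p = 0.137), and neither were psmb8a and psmb12 (adjusted p = 0.291 and 0.235).

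**Figure D5:**
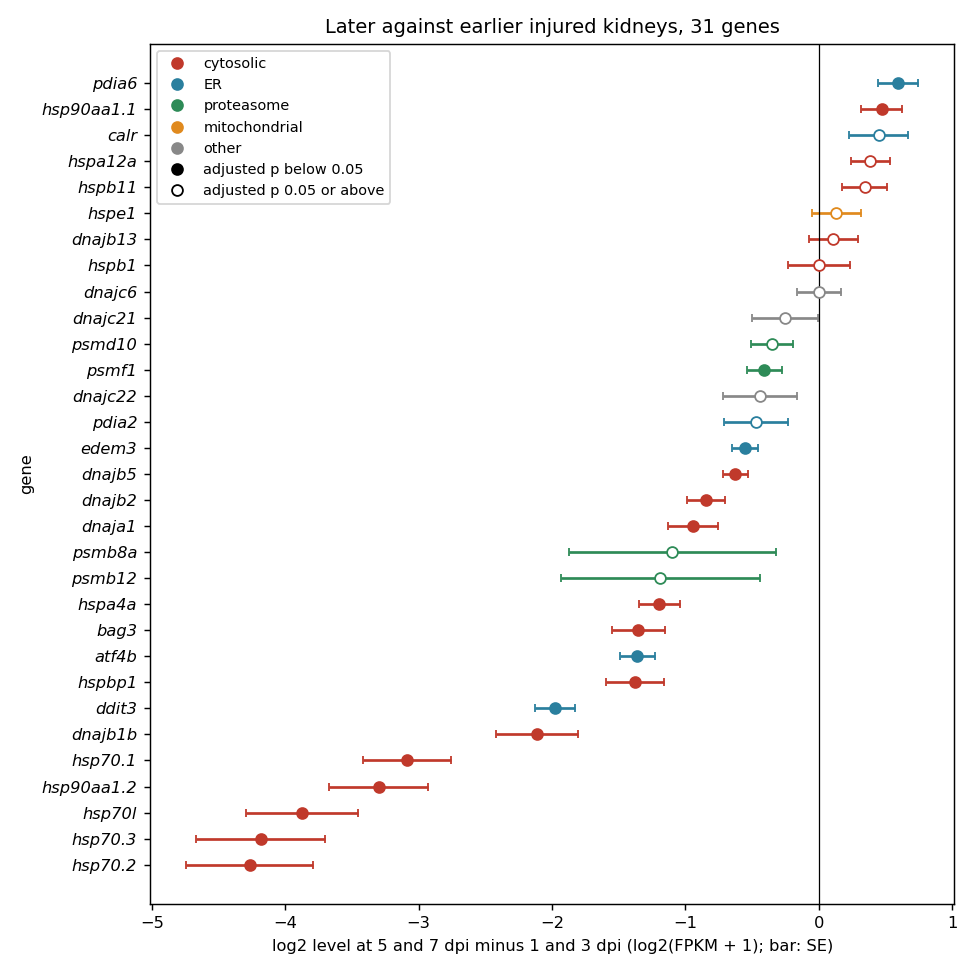
Difference in log2(FPKM + 1) between 5 and 7 dpi and 1 and 3 dpi for the 31 members, with the SE as a bar and filled points for an adjusted p below 0.05. Points left of 0 were lower later: hsp70.2 lies farthest left at -4.27, and pdia6 farthest right at 0.59.

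Further genes of the same pathways, outside the symbol rule, were taken from lists of textbook members, drawn up with earlier results of these data known, and the table holds few of them. Of 43 further chaperone, cochaperone and heat shock factor genes outside the ER stress response, 10 were listed. That list also holds mitochondrial, collagen-folding and RNA-binding proteins. At 1 dpi, where 12.9% of all genes tested were called higher and 6.9% lower, 4 of the 10 rose and 1 fell. The risers were the Hsp90 cochaperone gene fkbp5 (log2 change 2.74, limma adjusted p = 0.00255), the heat shock factor gene hsf2 (1.88), the mitochondrial exchange factor gene grpel2 (0.78) and the cold-inducible RNA-binding protein gene cirbpb (0.71), and the Hsp90 cochaperone gene cdc37l1 fell by 1.32. Levels of hsf2 were 7.60, 5.86 and 8.11 FPKM in control and 19.4, 33.3 and 36.9 FPKM at 1 dpi, without overlap. The order of the 1 dpi libraries in hsf2, replicate 3 highest, was not that of the hsp70 genes.

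Of 56 further genes of ER folding and the unfolded protein response 10 were listed. At 1 dpi, where 12.9% of all genes tested were called higher, 3 of the 10 rose. They were atf3, a stress-induced factor of the Atf family, from 5.18, 6.67 and 8.39 FPKM to 912, 1107 and 1343 FPKM (log2 change 7.18, limma adjusted p = 1.59e-04), ppp1r15a, the Gadd34 subunit that directs dephosphorylation of eIF2alpha (3.62), and cebpb, a partner of Ddit3 (2.42). The atf3 level was then 64.7, 108 and 95.7 FPKM at 3 dpi, 28.3, 34.5 and 26.8 FPKM at 5 dpi and 13.6, 10.9 and 20.005 FPKM at 7 dpi, above every control library throughout. It was called at 3 and 5 dpi and not at 7 dpi (adjusted p = 0.0548). The FK506-binding foldases of the ER on this list (fkbp7, fkbp9, fkbp10a, fkbp10b, fkbp11 and fkbp14) were not called at 1 dpi, and fkbp7 rose at 7 dpi (log2 change 1.13, adjusted p = 0.0310). Only 3 of 30 genes of ER-associated degradation were listed, of which derl3, a channel component, rose at 1 dpi (0.97), and 1 of 40 genes of ER import and glycosylation (tram2, not called at any time point).

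Of 33 further genes of the ubiquitin and proteasome system 8 were listed. At 1 dpi, where 12.9% of all genes tested were called higher, 6 of the 8 rose. The polyubiquitin gene ubb went from 33.7, 59.6 and 58.1 FPKM to 248, 237 and 228 FPKM (log2 change 2.26, limma adjusted p = 0.00284). The autophagy receptor gene sqstm1 went from 24.5, 30.1 and 42.5 FPKM to 245, 236 and 320.1 FPKM (3.03, adjusted p = 0.00106). In both the injured libraries were far from control and close to each other. The others were zfand5a, zfand5b and zfand2a, which encode ubiquitin-binding zinc finger proteins, and nfe2l1a, the homologue of the mammalian factor that drives proteasome genes, with log2 changes between 1.43 and 2.58. At 3 dpi only sqstm1 was called higher, at 5 dpi none (limma, 0 of 8), and at 7 dpi ubqln4 was lower.

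An Hsp70, J, disulfide isomerase or calreticulin family annotation is carried by 7 more listed genes whose symbols the rule does not match, picked from the annotation after the table was seen. The J protein gene DNAJA4, like the hsp70 genes, was called higher at 1 and 3 dpi (log2 changes 2.17 and 1.90, limma adjusted p = 0.0171 and 0.00901). Its levels were 6.16, 5.33 and 4.50 FPKM in control, 19, 53.2 and 19.9 FPKM at 1 dpi and 23.7, 22.7 and 21 FPKM at 3 dpi. The 3 dpi libraries of DNAJA4 thus lay above 1 dpi replicates 1 and 3 and below replicate 2. The calnexin-like gene si:ch211-274f20.2 and the disulfide isomerase-like gene zgc:136472 fell at 1 dpi, by 1.13 and 1.56 on the log2 scale (adjusted p = 0.0251 and 0.0145). At 7 dpi both were lower too, with log2 changes of -1.01 and -1.25 (adjusted p = 0.0261 and 0.0169), and zgc:136472 was lower at 3 dpi as well (-0.98, adjusted p = 0.0478). The first was at 8.30 to 8.87 FPKM in control and 2.49 to 4.03 FPKM at 1 dpi, and the second at 9.30 to 11.3 FPKM and 1.80 to 3.95 FPKM. Of the Hsp70 family genes among the 7, hsc70 was called at no time point, and HSPA8, at 1.26 to 1.51 FPKM in control, was lower at 5 dpi (0.584 to 0.636 FPKM, adjusted p = 0.0439) and at 7 dpi (0.538 to 0.750 FPKM, adjusted p = 0.0397).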

How the data were processed

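PolyA RNA of 15 kidney samples (5 groups of 3) was sequenced as paired reads. Per the labels and the processing notes, the authors cleaned the reads, assembled with StringTie 1.3.3b, counted with featureCounts 1.5.0-p3 and deposited FPKM per gene on GRCz11. The aligner and strand setting are not given in the sources used here. The rule by which the table came to hold 5686 genes is not given in the sources used here. The FPKM steps gave whole reads for 99.96% of genes (tolerance 0.02 reads), so library totals were recovered, and the listed genes held 19.2 to 34.2% of those reads. Intervals of counting error were not used, and 3 reads were taken as the floor.

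Genes above 0 in at least 3 samples (5685) were tested on log2(FPKM + 1) with limma 3.58.1 in R 4.3.3 (eBayes with trend) and Benjamini-Hochberg adjustment over all of them. Each time point was fitted against control on 6 samples, and the F-test and the contrast of late with early kidneys on all 15. A gene was called at an adjusted p below 0.05. Fold changes on this scale understate those of low genes. Scripts were tested on simulated data. Alternatives were the pseudocount, filter, scaling, replicate block, trend, all 15 samples and leaving out each sample. Those with voom and with ovary genes were chosen after seeing the data. The members and lists were chosen with earlier results of these data known. Named first were up to 4 members per class and direction with the largest called change whose groups did not overlap (for the late contrast, called alone), and the other members were then described so that all 31 are accounted for.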

Additional observations from a re-analysis of the deposited data

Results flagged for a closer look

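The difference between late (5 and 7 dpi) and early (1 and 3 dpi) injured kidneys was itself tested against 0 in limma. It passed the threshold for 18 members, against 35.6% of all genes tested (20.5% lower, 15% higher). Passing it alone thus does not set a member apart, and the 18 differences are listed for a closer look. In the Hsp70 and Hsp90 machinery the log2 differences were -4.27 (hsp70.2), -4.19 (hsp70.3), -3.88 (hsp70l), -3.30 (hsp90aa1.2), -3.09 (hsp70.1), -1.38 (hspbp1), -1.35 (bag3) and -1.20 (hspa4a), against 0.47 for hsp90aa1.1. In the J proteins they were -2.11 (dnajb1b), -0.94 (dnaja1), -0.84 (dnajb2) and -0.63 (dnajb5). In the ER class they were -1.98 (ddit3), -1.36 (atf4b), -0.55 (edem3) and 0.59 (pdia6), and in the proteasome class -0.41 (psmf1). Adjusted p-values ran from 1.43e-06 (ddit3) to 0.0313 (hsp90aa1.1).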

How the results depend on the processing

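With the replicate number as a block, 7 members were called at 1 dpi in place of 16, and 314 of all genes tested in place of 1127. At 3, 5 and 7 dpi 0 members were called, and 0 of all 5685 genes tested. The F-test kept a count of 25 and the late contrast one of 18. Whether equal numbers mark a shared day or batch is not given in the labels, and the values cannot settle it. Deviations from the group means correlated between -0.78 and 0.77 over 30 same-numbered pairs, and 7 of 15 samples correlated best with their own number. Leaving out each library in turn left between 23 and 25 members called over the 5 groups and between 16 and 19 in the late contrast. Against control the count lay between 10 and 14 at 1 dpi, between 2 and 10 at 3 dpi, at 0 or 1 at 5 dpi, and between 0 and 3 at 7 dpi. Without the 4 ovary-rich libraries, a fit on all other samples with 1 control library left, 4 members were called at 3 dpi, beside 12 in the fit on all 15 samples. At 5 dpi 1 member was called with a pseudocount of 0.1, a mean FPKM of at least 1, eBayes without trend, all 15 samples or the ovary covariate. At 7 dpi 0 were called with a mean FPKM of at least 1, median-of-ratios scaling or eBayes without trend, 3 with all 15 samples or the ovary covariate, and 1 lower (dnajc6) with quantile normalization. The voom fit on recovered reads called 13 members and 1066 of all genes at 1 dpi. The log2 change of psmf1 at 1 dpi, not called, was 0.17, and it was -0.061 with quantile normalization. The causes were not tested. Low genes such as hspb11 and dnajb5 rest on a few reads, which limits their precision.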
